A study of Mus musculus with 28 samples.

Results

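The comparison described here is that of the cerebral cortex of newborn mice with the Y334C mutation in Sepsecs against that of controls of the same age. Its members were chosen by sample, as all libraries labelled cortex at postnatal day 1 (P1), and number 6 of the 28 in the series. The 3 mutant libraries carry Y334C in Sepsecs and are labelled MT. The 3 control libraries are labelled WT for that mutation. All 6 come from mice of strain C57BL/6J, and the labels give no other allele or treatment, nor whether the mutants carry 1 or 2 mutant copies. Per the series' design text each library is 1 mouse, and per its title the mutation is a human one that causes death of the mice around birth. RNA was measured with QuantSeq, which sequences 1 tag near the 3′ end of each captured poly(A) RNA. The other libraries are P1 heart, and cortex and heart of adults at postnatal day 75 (P75) whose mutants also carry Gpx4 U/C, a label that names the selenocysteine (U) and the cysteine (C) form of Gpx4. The adult controls are labelled Gpx4 WT, and their Sepsecs genotype is not in the labels.

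Selenocysteine is the selenium-containing amino acid. It has no free pool and is built on its own tRNA: seryl-tRNA is phosphorylated by Pstk and then converted by Sepsecs with selenophosphate, which Sephs2 makes. The finished tRNA reads UGA codons of selenoprotein mRNAs with the help of the SECIS-binding protein Secisbp2 and the elongation factor Eefsec, where other mRNAs would stop. Several selenoprotein mRNAs are known to be lost when selenium or this tRNA runs short, because an unread UGA codon upstream of an exon junction can expose the mRNA to nonsense-mediated decay, while others are known to be spared. Brain neurons depend on selenoproteins for protection from peroxides, and inherited defects of SEPSECS in people cause loss of cerebellar and cerebral tissue.

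The 6 libraries held 5062069 to 7137720 counts, so that 1 count was worth 0.140 to 0.198 CPM, the unit of counts relative to the library total. They did not fall apart by genotype. The first principal component took 40.4% of the variance and placed control 1 and control 2 at one end, control 3 and mutant 3 at the other. Markers of neighbouring brain regions followed the same split. Tcf7l2, a transcription factor of the thalamus, stood at 424 CPM of the library total in control 3 and 420 in mutant 3, against 12.3 to 45.3 in the other 4 libraries. Control 1 stood apart in another way: Ttr, the defining product of the choroid plexus, was at 113 CPM there and at 1033 to 2017 elsewhere, and Mef2c, a factor of cortical excitatory neurons, at 2106 against 554 to 990. Its summed upper-layer neuron markers came to 4462 CPM, against 1930 to 2906 in the others. Neurod6, a defining factor of cortical excitatory neurons, was present in all 6 libraries, at 400.0 to 1126 CPM. Xist, expressed from the inactive X chromosome, was high in control 1 and in the 3 mutants (285 to 515 CPM), and the Y-linked Ddx3y was found at 56.5 and 88.4 CPM in control 3 and control 2. Sex and genotype therefore overlap in these libraries: the males are all controls, and only 1 control is female. Fits below with the Xist level as a covariate thus set the mutants largely against control 1. They do not separate sex from the make-up of that library. In bulk tissue, fewer cells of a type and less RNA per cell cannot be told apart.

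**Figure D1:**
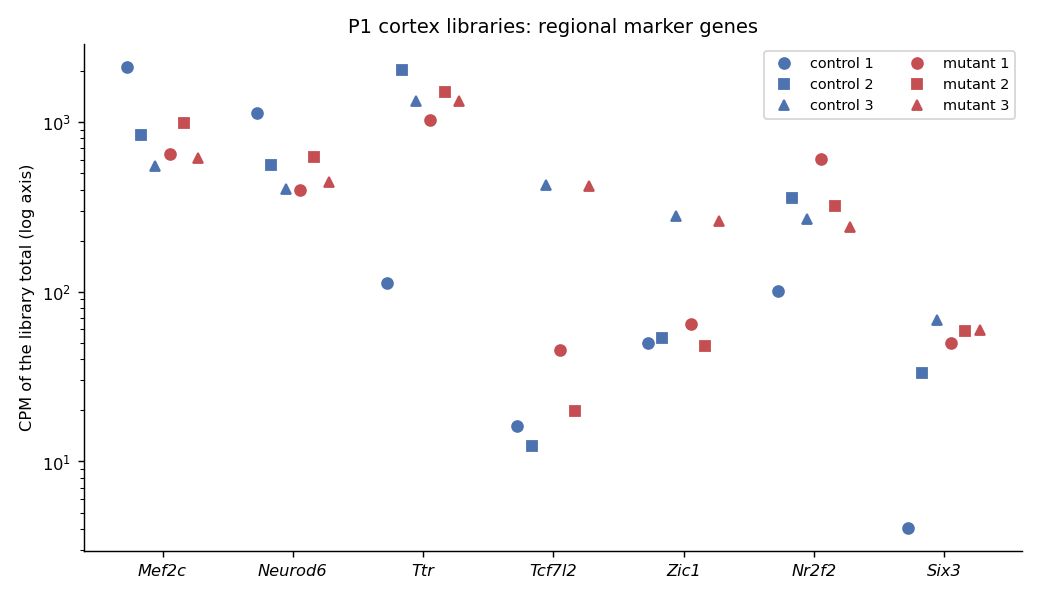
Levels of 7 regional marker genes in each of the 6 P1 cortex libraries, as CPM of the library total on a log axis (blue, controls; red, mutants; circle, square and triangle, numbers 1, 2 and 3). Tcf7l2 and Zic1 are high in control 3 and mutant 3 alone, and Ttr and Six3 are lowest in control 1.

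The mutated codon lies in exon 8 of the 11 exons of Sepsecs, on the minus strand of chromosome 5 (GRCm38 chr5:52656038-52656040). The reference sequence around it is shown to place the mutation, from the genome with GENCODE M21 gene models, 5′ to 3′, with the codon for tyrosine (Y) in capitals.
Sepsecs, codon mutated in Y334C: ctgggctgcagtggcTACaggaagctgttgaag
A missense codon need not change the level of its mRNA, and 3′ tags do not read exon 8, so the level of Sepsecs does not check the labels. Sepsecs mRNA was measured at 10.1, 13.7 and 12.3 CPM in controls 1, 2 and 3, and at 17.5, 17.6 and 14.2 in mutants 1, 2 and 3 (here and below, CPM carry the TMM factors unless the library total is named). All 3 mutants lay above all 3 controls. The log2 fold change was 0.46 ± 0.22 (SE), with an edgeR unadjusted p = 0.0651.

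Across the table, 0 of 13694 tested genes passed an adjusted p of 0.05 in the edgeR quasi-likelihood test (0.00% called), and the smallest adjusted p was 0.9996. An unadjusted p under 0.05 was reached by 287 genes (2.10%), 140 of them higher in mutants (1.02%) and 147 lower (1.07%). The groups did not overlap for 944 genes (6.89%), of which 460 lay above the controls (3.36%) and 484 below (3.53%). DESeq2, run as an alternative on the same counts, called 3 genes (0.0219%): Gabra2, Selenow and Gpx1. On simulated counts, with 100 genes changed 2-fold and 100 changed 4-fold, DESeq2 called 59% of 2-fold changes and made 27 false calls. Those counts were drawn gene by gene, without the shared library differences described above. Such figures therefore need not hold for the real counts. In the same simulation edgeR called 44% and made 10, and limma-voom called 40% and made 8. On the real counts limma-voom called 0 genes. Of 13694 genes, 133 differed by at least 1 on the log2 scale. The gene values that follow are thus levels and differences that did not pass edgeR over all genes, and they are worded as such.

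**Figure D2:**
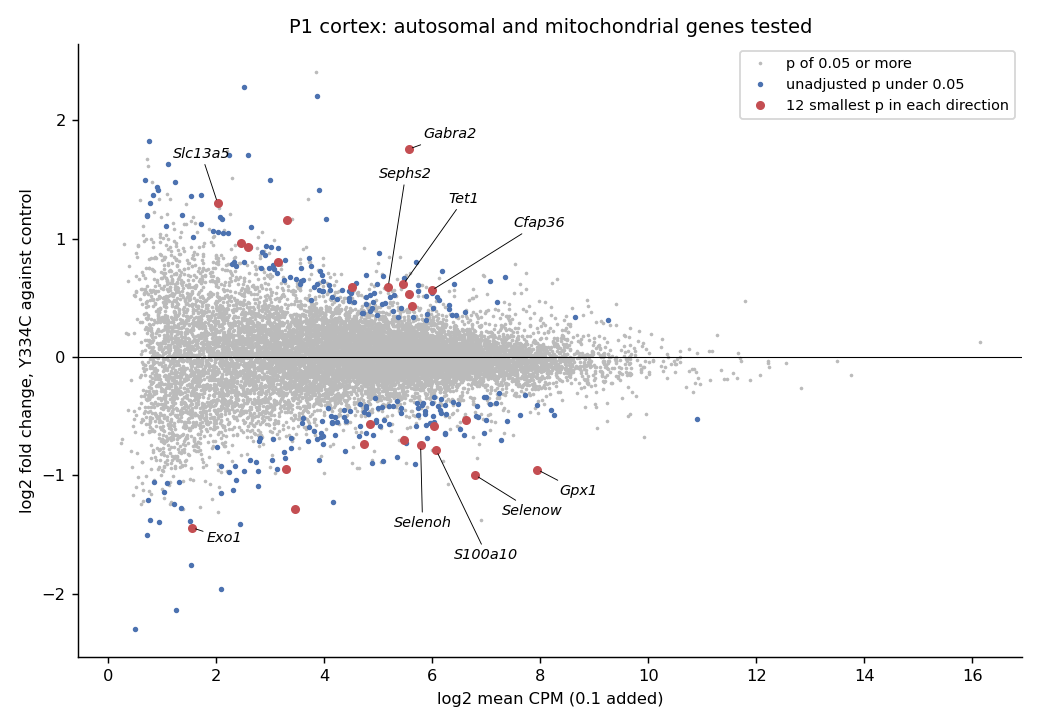
Each point is 1 gene tested in P1 cortex outside the sex chromosomes, with the log2 of its mean CPM over the 6 libraries on the x axis and the log2 fold change, mutants against controls, on the y axis; blue points have an edgeR unadjusted p under 0.05 and red points are the 12 smallest p in each direction. Gabra2 stands at 1.76, and Selenow and Gpx1 at −0.998 and −0.95.

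Selenoprotein mRNAs of the kind known to follow selenium supply had the lowest median of the gene lists. This group was chosen with earlier results of these data known, so its rank is a description only. Selenow, Gpx1 and Selenoh were each lower in all 3 mutants than in any control, with log2 fold changes of −0.998, −0.95 and −0.75. The sequence around the selenocysteine codon of these 3, and of the 4 other selenoprotein mRNAs with an unadjusted p under 0.05, is shown because the UGA codon is where the product of Sepsecs is used. The letters are those of the reference genome (GRCm38, GENCODE M21), 5′ to 3′ on the coding strand, with the codon, TGA in DNA, in capitals.
Selenow codon 13: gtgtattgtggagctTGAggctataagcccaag
Gpx1 codon 47: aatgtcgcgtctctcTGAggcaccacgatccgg
Selenoh codon 38: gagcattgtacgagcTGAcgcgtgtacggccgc
Txnrd1 codon 498: ctccagtctggctgcTGAggt
Sephs2 codon 63: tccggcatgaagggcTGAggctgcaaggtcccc
Selenot codon 49: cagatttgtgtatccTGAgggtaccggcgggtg
Dio3 codon 170: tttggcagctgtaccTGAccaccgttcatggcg
The Txnrd1 run ends early because its UGA is the codon before the last one.

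Selenow encodes a small thioredoxin-like protein that is abundant in brain and muscle (chromosome 7, 15917208 to 15922402). It was measured at 134, 166 and 143 CPM in the controls and at 78.1, 85.5 and 58.1 in the mutants. The highest mutant lay well under the lowest control. Means were 148 ± 16.5 and 73.9 ± 14.2 (SD, n = 3 each), a log2 fold change of −0.998 ± 0.172 (SE). The edgeR unadjusted p was 0.000228, and DESeq2 gave an adjusted p = 0.00292 (5.47e-05 to 1 across every setting tried). The fold change stayed between −1.11 and −0.85 when libraries were left out or settings changed.

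Gpx1 encodes the main cytosolic glutathione peroxidase, which reduces hydrogen peroxide (chromosome 9, 108338903 to 108340343). Its levels were 284, 355 and 333 CPM in controls and 171, 133 and 199 in mutants. The groups did not overlap, and the mutant means of 168 ± 33.4 compared with 324 ± 36.4 (SD, n = 3 each). The log2 fold change was −0.95 ± 0.17 (SE), with an edgeR unadjusted p = 0.00033 and a DESeq2 adjusted p = 0.00413 (6.77e-05 to 1 across settings). Selenoh, a nuclear redox protein (chromosome 2, 84669215 to 84670770), was at 75.7, 71.6 and 59.1 CPM in controls and at 39.9, 38.9 and 44.3 in mutants. Its mutant values were the tightest of the 3 genes. The log2 fold change was −0.75 ± 0.15 (edgeR unadjusted p = 0.000766).

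The other 2 genes of this group did not separate. Msrb1, a methionine sulfoxide reductase, was at 29.9, 31.3 and 27.9 CPM in controls and 30.8, 19.4 and 26.9 in mutants, with mutants 2 and 3 below every control and mutant 1 among them. Gpx3, the secreted glutathione peroxidase, was at 10.1, 5.19 and 16.8 CPM in controls and 9.97, 4.61 and 16.0 in mutants, following the library number rather than the genotype. Of the 5 genes, 0 were higher and 5 lower in mutants, 3 with an unadjusted p under 0.05 and non-overlapping groups, and their median log2 fold change was −0.75 against −0.00295 over all genes tested. The 3 lower genes are the ones that earlier results of these data had already shown, so their count is a description. The summed level of the 5 mRNAs was 514 to 616 CPM of the library total among controls and 286 to 340 in mutants. Gpx1 alone gave 273 to 347 CPM of that sum in controls and 135 to 197 in mutants, so the sum says little about Msrb1 and Gpx3.

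The differences among libraries set out above were set beside these 3 genes. Control 1, the female control, had 134, 284 and 75.7 CPM of Selenow, Gpx1 and Selenoh, above every mutant. Control 3 and mutant 3, which share high thalamic markers, stood at 143 against 58.1 CPM for Selenow, 333 against 199 for Gpx1 and 59.1 against 44.3 for Selenoh. With the Xist level as a covariate the log2 fold changes were −0.90, −0.75 and −0.88. Control 1 is the only control with high Xist, so that fit largely repeats the comparison with control 1 and is no separate check on sex. With the Tcf7l2 level as a covariate, chosen after seeing the data, they were −0.97, −1.001 and −0.73, and without control 3 and mutant 3 they were −0.87, −1.07 and −0.90.

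**Figure D3:**
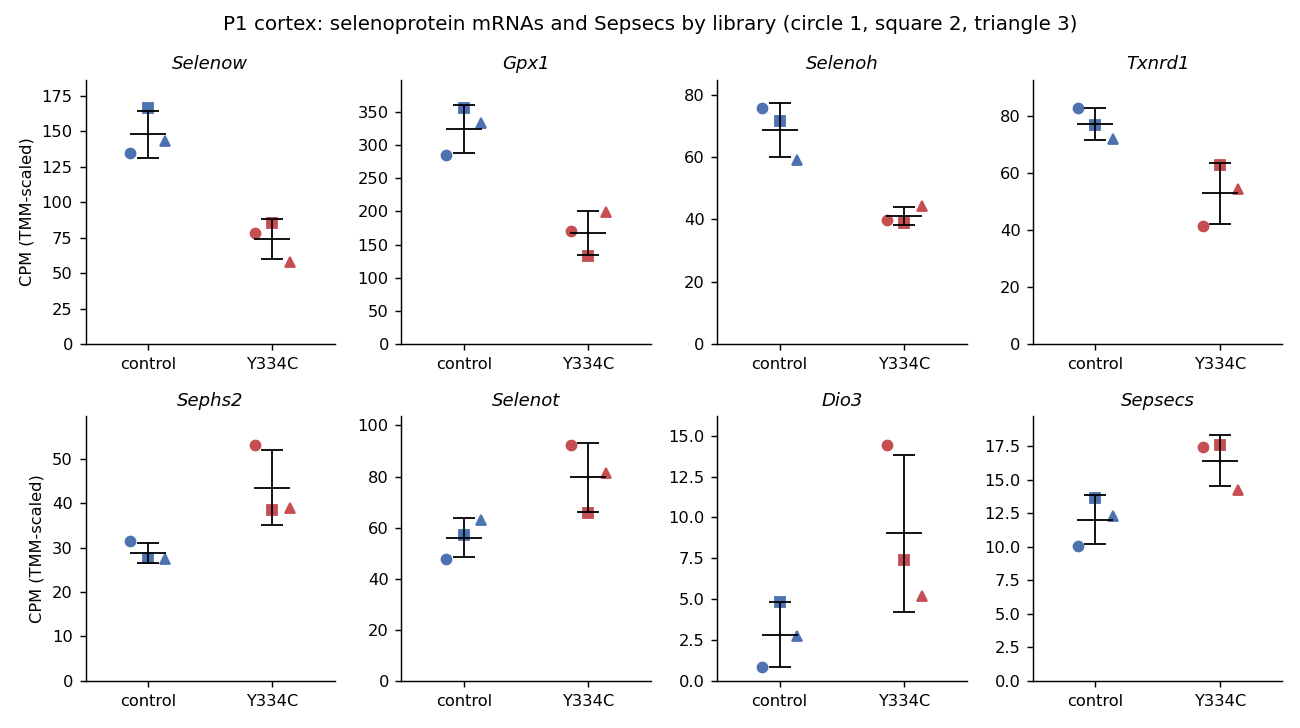
TMM-scaled CPM of 7 selenoprotein mRNAs and Sepsecs in the 3 control (blue) and 3 Y334C (red) cortex libraries at P1; circle, square and triangle are numbers 1, 2 and 3, and black bars give the mean ± SD. For all 8 genes the groups do not overlap, with Selenow, Gpx1, Selenoh and Txnrd1 lower and Sephs2, Selenot, Dio3 and Sepsecs higher in the mutants.

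Among the other selenoproteins, 1 further mRNA had an unadjusted p under 0.05 on the lower side and 3 on the higher side. Txnrd1, the cytosolic thioredoxin reductase, was at 82.9, 77.0 and 71.9 CPM in controls and 41.6, 62.8 and 54.3 in mutants. All mutants were below all controls, with mutant 1 lowest (log2 fold change −0.55 ± 0.17, edgeR unadjusted p = 0.0108). Sephs2, the selenophosphate synthetase that supplies Sepsecs and is itself a selenoprotein, was at 31.5, 27.7 and 27.4 CPM in controls and 53.1, 38.6 and 38.9 in mutants. Every mutant was above every control (0.59 ± 0.18, edgeR unadjusted p = 0.00949). Selenot, a selenoprotein of the endoplasmic reticulum, was at 47.8, 57.3 and 63.1 CPM in controls and 92.4, 65.6 and 81.2 in mutants, with control 3 and mutant 2 nearly touching (0.51 ± 0.17, edgeR unadjusted p = 0.0161). Dio3, the deiodinase that inactivates thyroid hormone, was at 0.874, 4.84 and 2.74 CPM in controls and 14.4, 7.41 and 5.21 in mutants. These are few counts, and 1 library, mutant 1, holds the highest level of Dio3, Selenot and Sephs2 alike. Without mutant 1, 0 selenoproteins had an unadjusted p under 0.05 on the higher side, where all libraries gave 3, while 4 had one on the lower side, as before.

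Of 24 selenoprotein genes 21 were tested, 11 higher and 10 lower in mutants, with 3 and 4 at an unadjusted p under 0.05. The mutants lay above all controls for 3 and below them for 5, and the median was 0.02. Over all genes tested, 1.02% were higher and 1.07% lower at an unadjusted p under 0.05. For 3.36% of them the mutants lay above all controls, and for 3.53% below. Dio1, Gpx2 and Selenov did not pass the filter on low counts. Gpx4, the lipid peroxidase whose selenium-free form is used in the adult mice of the series, was the fifth with mutants below controls, though by little: 9.18, 9.51 and 8.84 CPM in controls against 8.67, 8.73 and 8.22 in mutants (−0.10 ± 0.23, edgeR unadjusted p = 0.673). The split of its tags from those of near-identical pseudogenes is uncertain. The remaining mRNAs overlapped between groups. They include Selenok, Selenos and Selenof of the endoplasmic reticulum, and Selenop, the plasma carrier of selenium, which ranged from 71.3 to 164 CPM in controls and from 70.0 to 153 in mutants.

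The values were then set against the place of the UGA codon in the mRNA. In 10 tested mRNAs the codon lies more than 55 bases before the last exon junction, the arrangement known to allow nonsense-mediated decay. Of these 5 were higher and 5 lower, and log2 fold changes ran from −0.998 to 0.51. Selenow, Gpx1 and Selenoh belong to this class, with 243, 105 and 136 bases to the junction, and so does Selenot, with 470 bases, which was higher in mutants. In 7 mRNAs the codon is in the last exon, and 4 were higher and 3 lower, Txnrd1 among the lower. Dio3 and Sephs2, the 2 single-exon mRNAs, were both higher. The remaining 2, Selenok and Msrb1, have the codon 5 and 34 bases before the last junction.

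**Figure D4:**
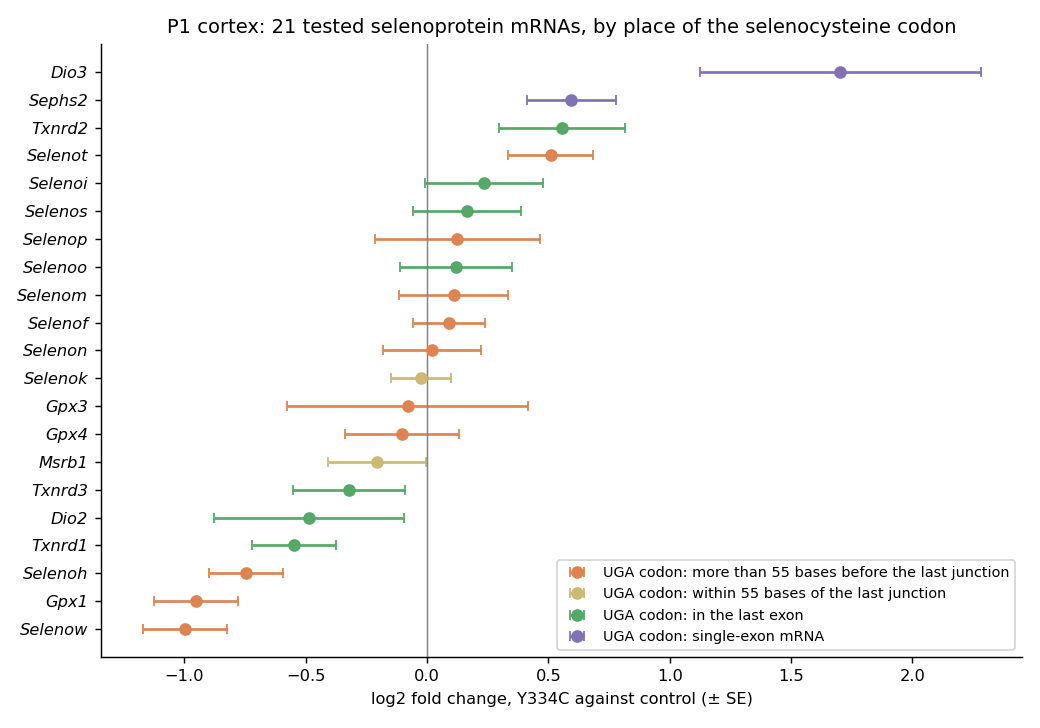
Log2 fold change (mutants against controls, ± SE from the edgeR fit) of the 21 tested selenoprotein mRNAs in P1 cortex, ordered by size and coloured by where the selenocysteine UGA codon lies relative to the last exon junction. mRNAs with the codon more than 55 bases upstream span the range from −0.998 to 0.51, and both single-exon mRNAs lie on the higher side.

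Of the 12 tested genes that make or insert selenocysteine, 9 averaged higher and 3 lower. Besides Sephs2, 1 had an unadjusted p under 0.05: Rpl30, a ribosomal protein that also binds SECIS elements, was at 33.5, 57.6 and 40.1 CPM in controls and 28.6, 29.7 and 30.1 in mutants (−0.57 ± 0.21, edgeR unadjusted p = 0.0244). Its control spread came mainly from control 2, and processed copies of ribosomal protein genes make its count uncertain. Pstk, the kinase one step before Sepsecs, was at 7.14 to 7.93 CPM in controls and 7.08 to 8.02 in mutants. Eefsec was at 6.57 to 7.87 CPM in controls and 7.37 to 9.62 in mutants. Lrp8, the receptor that takes Selenop into brain cells, was at 196 to 264 CPM in controls and 197 to 267 in mutants. Secisbp2, Eefsec and Lrp8 overlapped between groups, as did Pstk.

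The gene with the smallest p in the table was Gabra2, which encodes the alpha 2 subunit of the GABA-A receptor, prominent in the developing forebrain (chromosome 5, 70957597 to 71095849). It was measured at 13.7, 25.4 and 25.8 CPM in controls and at 68.6, 93.7 and 56.3 in mutants. The groups lay far apart, and means were 21.6 ± 6.87 and 72.9 ± 19.1 (SD, n = 3 each). The log2 fold change was 1.76 ± 0.28 (SE), with an edgeR unadjusted p = 0.00011 and adjusted p = 0.9996. DESeq2 gave an adjusted p = 9.18e-06 (7.96e-14 to 0.99999 across settings). Over the alternatives its fold change ranged from 1.51 without control 1 to 2.33 with the Xist level as a covariate.

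Gabra2 lies 18.4 Mb from Sepsecs on the same chromosome. As background, the C57BL/6J strain is known to carry an intronic deletion in Gabra2 that lowers its expression and that C57BL/6N lacks, and sequence flanking an edited or mutated locus is inherited with it. Whether either bears on these values was not tested. Within 20 Mb of Sepsecs, 174 genes were tested, and 5 had an unadjusted p under 0.05 (2.87%), against 2.00% on the rest of chromosome 5 and 2.11% on the other autosomes. The groups did not overlap for 5.17% of the genes within 20 Mb, against 5.47% and 6.98%. These 5 were Gabra2, Klf3, Acox3, Fgfr3 and Kctd8. Klf3, a transcriptional repressor, was at 37.7, 34.4 and 30.6 CPM in controls and 23.7, 21.9 and 23.9 in mutants, and Acox3, a peroxisomal oxidase, at 22.3, 17.1 and 15.4 and at 27.7, 25.2 and 27.1. Of the other genes known to differ between the 2 substrains, Nnt, a mitochondrial transhydrogenase, was at 0.914 to 4.08 CPM in controls and 2.31 to 4.81 in mutants. Wdfy1 varied within both groups, at 25.8 to 66.0 and at 24.9 to 93.8 CPM. As CPM of the library total, Cyfip2 was at 265 to 335 in controls and 262 to 337 in mutants. Ide was at 19.1 to 41.2 and 32.8 to 35.2, and Fgfbp3 at 32.3 to 49.2 and 44.8 to 51.1. Of the 6 tested substrain genes, Gabra2 included, 5 averaged higher and 1 lower (median 0.26), with 1, Gabra2, at an unadjusted p under 0.05.

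The 3 genes that share a cluster with Gabra2 did not separate the groups. Gabrg1 was at 10.9, 9.34 and 34.1 CPM in controls and 35.1, 21.7 and 46.9 in mutants (0.92 ± 0.47, edgeR unadjusted p = 0.0811). Gabrb1 ranged from 31.9 to 97.2 CPM in controls and from 71.5 to 126 in mutants, and Gabra4 from 13.0 to 21.9 and from 16.2 to 25.6. Within each group Gabrg1 was highest in the library with high thalamic markers, control 3 and mutant 3. Tcf7l2 was at 45.3 CPM of the library total in mutant 1, between those 2 and the remaining libraries. What part thalamic tissue has in the level of Gabrg1 was not tested. Of 12 tested GABA-A receptor subunits 9 were higher and 3 lower, with 1, Gabra2, at an unadjusted p under 0.05 and a median of 0.22 (0.07 without mutant 1 and 0.12 without mutant 3). Of 17 ionotropic glutamate receptor subunits, which carry fast excitation, 16 averaged higher and 1 lower (median 0.16), and 0 had an unadjusted p under 0.05. That median was 0.08 without mutant 1, 0.26 without control 2 and 0.40 with the Xist level as a covariate. The number higher at an unadjusted p under 0.05 was 7 with that covariate, 2 without control 3 and 1 without control 2.

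**Figure D5:**
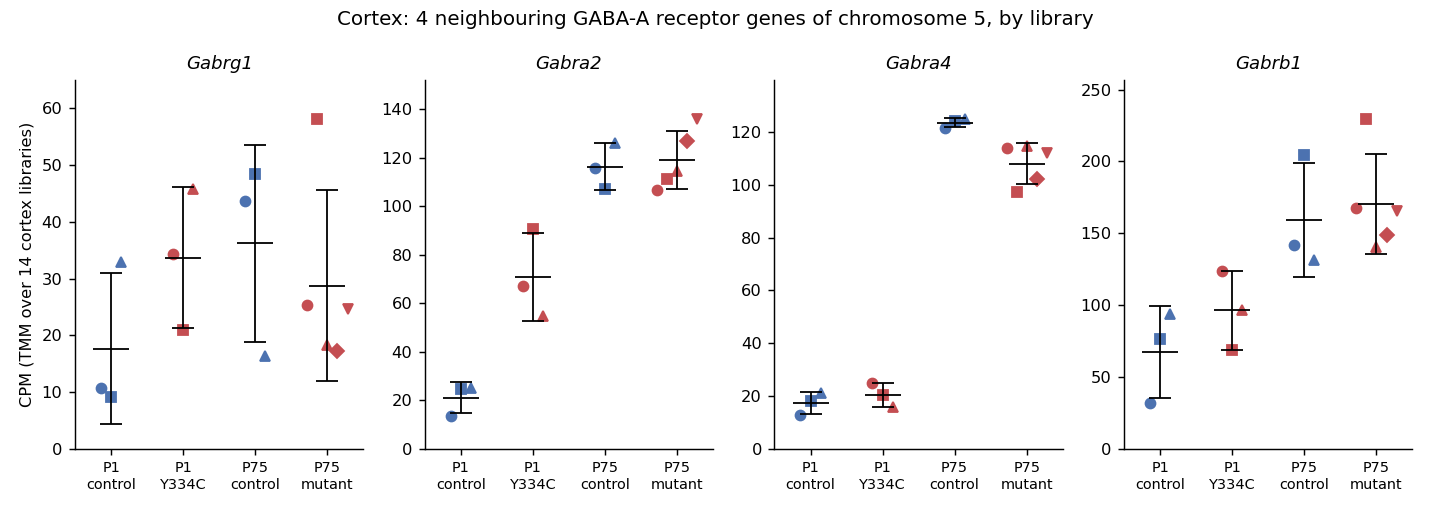
CPM (TMM factors over the 14 cortex libraries) of 4 neighbouring GABA-A receptor subunit genes in P1 and P75 cortex; each symbol is a library (blue, controls; red, mutants; the shape marks its number), and black bars give the mean ± SD. Gabra2 separates controls from mutants at P1 and overlaps at P75, where both groups are above every P1 library, and Gabrg1 and Gabrb1 overlap at both ages.

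Other genes with small p values were spread over the lists or belonged to none. On the higher side stood Tet1, a dioxygenase that oxidises methylcytosine in DNA, at 33.4, 30.1 and 40.8 CPM in controls and 51.6, 55.2 and 53.1 in mutants (0.62 ± 0.16, edgeR unadjusted p = 0.00417). It was the only one of 17 tested genes of DNA methylation with an unadjusted p under 0.05, and 12 of those 17 were lower. Cfap36 was at 45.2, 59.5 and 48.8 CPM in controls and 79.1, 73.6 and 73.6 in mutants, and Ppp4r3b, a phosphatase subunit whose 3′ end lies 0.7 kb away on the opposite strand, at 63.4, 49.1 and 43.7 and at 68.5, 88.8 and 69.8. No source used here says whether counting used the strand, so tags of these neighbours may not be separate. Slitrk3, a synaptic adhesion protein of inhibitory synapses, had 18.1, 18.5 and 17.8 CPM in controls and 29.9, 27.7 and 24.3 in mutants. The controls agreed closely there. Pam, which amidates neuropeptides, was at 39.0 to 45.7 CPM in controls and 55.7 to 56.7 in mutants, and Unc5d, a netrin receptor, at 34.5 to 41.8 and 51.4 to 63.4. Slc13a5, a citrate transporter, had the largest fold change of the higher set after Gabra2 (1.30 ± 0.42) at 1.56 to 2.90 CPM in controls and 3.61 to 7.62 in mutants. St18 (1.16 ± 0.37), Harbi1 (0.97 ± 0.32), Hfm1 (0.93 ± 0.30) and Fam71e1 (0.80 ± 0.25) completed it, all below 16 CPM in each library.

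On the lower side, S100a10, a partner of annexin A2 that carries receptors and channels to the membrane, was at 111, 77.1 and 67.5 CPM in controls and 44.5, 50.7 and 52.7 in mutants (−0.79 ± 0.20, edgeR unadjusted p = 0.00283). Control 1 was the highest, and without it the fold change was −0.55. Hsph1, a cytosolic chaperone of the HSP110 family, was at 103, 123 and 124 CPM in controls and 78.3, 80.7 and 82.6 in mutants. It was the 1 of 19 tested heat shock chaperones with an unadjusted p under 0.05. The summed level of that list was 4578 to 4843 CPM of the library total among controls and 4574 to 4908 in mutants. Hsp90ab1 alone gave 3118 to 3421 CPM of that sum across the libraries, so the sum says little about the other members. Lgals1, a galactoside-binding lectin, was at 34.7, 28.4 and 36.9 CPM in controls and 22.4, 16.8 and 20.9 in mutants, and Akap12, a kinase anchor, at 80.5, 73.2 and 82.6 and at 50.3, 45.3 and 61.95. Exo1, a DNA repair exonuclease, had the largest fold change of this set (−1.44 ± 0.40) at 3.35 to 5.02 CPM in controls and 1.30 to 1.65 in mutants. Rnpep (−0.70 ± 0.20), Mlip (−1.28 ± 0.37), Cnn2 (−0.94 ± 0.27) and Klf3 (−0.57 ± 0.17) completed it, and Mlip was −0.86 without control 1.

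Cell-type markers were compared next, and here the library differences described above moved with the lists. Beside the counts of each list stand 1.02% of all genes tested higher and 1.07% lower at an unadjusted p under 0.05. All 21 astrocyte markers averaged higher in mutants (median 0.36), with 2 at an unadjusted p under 0.05. Fgfr3, a growth factor receptor of astrocytes and their precursors, was at 31.5, 24.4 and 46.9 CPM in controls and 56.2, 45.5 and 61.95 in mutants. Agt, angiotensinogen, was at 2.04, 1.21 and 12.04 CPM in controls and at 23.8, 3.95 and 43.9 in mutants. The groups overlapped for all 21. The summed level was 2135, 1946 and 3535 CPM of the library total among controls and 3436, 2104 and 3869 in mutants, so that control 3 and mutant 3, with their thalamic markers, were the 2 highest. The median of the list was 0.15 without mutant 3, 0.20 without control 1, 0.24 without control 2, 0.58 without mutant 2 and 0.71 without control 3. It was 0.49 without both control 3 and mutant 3, and 0.82 with the Xist level as a covariate.

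Endothelial markers were 16 lower and 3 higher of 19 (median −0.33), with 3 lower at an unadjusted p under 0.05. Kdr, the main receptor for VEGF, was at 84.6, 68.8 and 56.7 CPM in controls and 50.5, 51.2 and 39.5 in mutants, and Tie1 at 8.30, 11.4 and 8.08 and at 6.21, 4.94 and 1.60. Emcn, a sialomucin of the vessel surface, was at 5.64 to 8.30 CPM in controls and 1.80 to 5.49 in mutants. The summed endothelial level overlapped, at 397 to 623 CPM of the library total among controls and 319 to 512 in mutants, with control 1 highest. Without control 1 the median was −0.11, and without mutant 3 it was −0.22. Markers of meninges and matrix were 18 lower and 2 higher of 20 (median −0.31), with 1, the matrix protease Mmp2, at an unadjusted p under 0.05 (12.4, 7.27 and 7.01 CPM in controls, 5.49, 4.12 and 4.01 in mutants). Their median was −0.13 without control 1, −0.16 without mutant 2 and −0.51 without mutant 1. Upper-layer neuron markers had a median of −0.51, with 9 of 12 lower. Of these 12, 0 were lower at an unadjusted p under 0.05 and 1, Unc5d, was higher at one, against the direction of the list. The median was −0.08 without control 1, the library whose Mef2c stood apart, and −0.30 without mutant 1. With the Xist level as a covariate the endothelial, meningeal and upper-layer medians were −0.74, −0.71 and −1.04. What part the make-up of control 1 has in these lists was not tested.

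Interneuron markers were 13 higher and 8 lower of 21 (median 0.20), with 3 at an unadjusted p under 0.05 and in both directions. Erbb4, the neuregulin receptor of migrating interneurons, was at 62.9, 77.5 and 58.8 CPM in controls and 134, 70.7 and 99.4 in mutants. Npy, a neuropeptide, was at 261, 187 and 126 CPM in controls and 96.2, 152 and 105 in mutants, and the factor Npas1 was at 17.0, 10.4 and 8.54 and at 8.52, 6.75 and 5.21. Of these 3, only Npas1 kept the groups apart, and its lowest control and highest mutant differed by less than 1 count's worth of CPM. The median was 0.09 without control 1 and 0.10 without mutant 1, and without control 1, 0 interneuron markers had an unadjusted p under 0.05. Of 15 tested progenitor markers 8 were higher and 7 lower, and Hes1, the Notch target that keeps progenitors dividing, was at 28.3, 30.4 and 27.3 CPM in controls and 22.2, 18.9 and 24.1 in mutants. Neutrophil genes, markers of blood left in the tissue, summed to 7.3 to 10.5 CPM of the library total in the 6 libraries.

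Stress and metabolic pathways held few genes with small p values, where all genes tested gave 2.10% at an unadjusted p under 0.05. Of 34 tested genes of the integrated stress response, driven by ATF4, 21 were higher and 13 lower, and 0 had an unadjusted p under 0.05. Chac1, an ATF4 target that breaks down glutathione, was at 6.70, 3.46 and 5.49 CPM in controls and 7.94, 6.92 and 10.0 in mutants (0.66 ± 0.33, edgeR unadjusted p = 0.0774). Among 25 genes of cholesterol synthesis, 16 averaged higher and 9 lower, and among 17 ferroptosis and iron genes 9 higher and 8 lower, each with 0 at an unadjusted p under 0.05. The cholesterol count was 11 higher and 14 lower without control 1, 12 and 13 without control 2 or without mutant 1, and 24 and 1 with the Xist level as a covariate. Ferroptosis and iron genes were 8 higher and 9 lower without control 1 or without mutant 1, and 7 and 10 with that covariate. Unfolded protein response genes were 6 higher and 13 lower of 19, and p53 targets 4 higher and 12 lower of 16, again with 0. With the Xist level as a covariate both turned, to 12 higher and 7 lower and to 11 and 5. Without control 1, 2 unfolded protein response genes were higher and 4 lower at an unadjusted p under 0.05. Cell-cycle genes were 10 higher and 30 lower of 40 (median −0.22) with 0 at an unadjusted p under 0.05. Their median was −0.03 without mutant 1, −0.08 without control 2, −0.13 without control 3 and 0.14 with the Xist level as a covariate. The directions of the cholesterol and ferroptosis lists thus rest on single libraries. In the values printed here, the unfolded protein, p53 and cell-cycle lists turned only with the Xist covariate. That covariate sets the mutants largely against control 1.

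NRF2 targets, the enzymes that renew glutathione and detoxify quinones, were 13 higher and 11 lower of 24, with Gstm1 higher and Txnrd1 lower at an unadjusted p under 0.05. Gstm1, a glutathione transferase of astrocytes, was at 50.7, 49.6 and 63.7 CPM in controls and 108, 54.5 and 109 in mutants, and mutant 2 lay among the controls. Mutant 2 also had the lowest summed astrocyte markers of the mutants, and their part in this value was not tested. In the wider glutathione and thioredoxin systems 11 were higher and 17 lower of 28, and the 1 at an unadjusted p under 0.05 was Glrx3, an iron-sulfur glutaredoxin, at 71.2, 82.0 and 64.3 CPM in controls and 49.7, 54.4 and 61.95 in mutants. Of 22 thyroid hormone genes 11 were higher, Dio3 among them, and 11 lower, and Cirbp, a cold-induced RNA-binding protein, was the other with an unadjusted p under 0.05 (301 to 407 CPM in controls, 418 to 477 in mutants). Of 17 glucocorticoid-responsive genes 2 had an unadjusted p under 0.05: Mt1, a metallothionein, at 171, 109 and 95.0 CPM in controls and 224, 120 and 254 in mutants, and Hif3a at 1.52 to 2.25 and 3.46 to 4.81. Of 22 immediate early genes, Jun had one, at 56.8, 81.6 and 62.3 CPM in controls and 43.9, 49.3 and 52.9 in mutants. Among 15 interferon-stimulated genes it was reached by the class I antigen H2-D1, at 26.5 to 31.5 CPM in controls and 35.3 to 45.5 in mutants, and by Ifitm3, at 16.6 to 23.6 and 7.82 to 16.2.

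The same genes were then set beside the P1 heart and the P75 cortex. These differences share the P1 cortex libraries, the P75 mutants also carry Gpx4 U/C, so age and that allele cannot be told apart, and the heart RNA was extracted by more than 1 method. Sex and genotype overlap in P1 heart too. Xist was at 109 to 299 CPM of the library total in the heart mutants and at 291 in heart control 2. Ddx3y was at 27.7 and 86.5 CPM in heart controls 1 and 3. Sex markers of the P75 libraries are not given here. By the edgeR interaction test, 0 of 15157 genes passed between P1 heart and P1 cortex (0.00%), with 371 at an unadjusted p under 0.05 (2.45%), and 0 of 14806 between P75 and P1 cortex (0.00%), with 521 (3.52%). On simulated counts these 2 tests called only 3% and 9% of 2-fold differences, so a count of 0 leaves room for such differences. Selenow was at 99.9, 57.4 and 64.4 CPM in heart controls and 18.8, 23.6 and 17.6 in heart mutants. Its log2 fold change was −1.91 ± 0.29 in heart and −1.27 ± 0.30 in P75 cortex, and heart minus cortex was −0.88 ± 0.33 (edgeR unadjusted p = 0.0172, adjusted p = 0.9999). Selenoh had −1.60 ± 0.26 in heart, a difference of −0.83 ± 0.30 from cortex (edgeR unadjusted p = 0.0149, adjusted p = 0.9999), and −0.53 ± 0.18 in P75 cortex. Gpx1 had −0.51 ± 0.30 in heart and −0.93 ± 0.27 in P75 cortex, and neither difference from P1 cortex had an unadjusted p under 0.05. Sephs2 had nearly one value in the 3 comparisons, 0.59 ± 0.18 in P1 cortex, 0.57 ± 0.26 in P1 heart and 0.55 ± 0.19 in P75 cortex.

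Gabra2 and some of the lower genes had other values at P75. Gabra2 was at 107 to 126 CPM in P75 controls and at 106 to 136 in P75 mutants, with a log2 fold change of 0.04 ± 0.14, and the difference from P1 was −1.72 ± 0.31 (edgeR unadjusted p = 4.4e-05, adjusted p = 0.651). In heart it was at or under 0.318 CPM in every library. Lgals1 had 0.56 ± 0.21 at P75, a difference of 1.30 ± 0.30 from P1 cortex, and S100a10 had 0.39 ± 0.23, a difference of 1.18 ± 0.33, both with adjusted p = 0.9999 by edgeR. Txnrd1 had −0.01 ± 0.35 in heart and −0.09 ± 0.20 at P75, with differences from P1 cortex of 0.56 ± 0.41 and 0.46 ± 0.29. Selenot had −0.44 ± 0.38 in heart, with heart minus cortex at −0.94 ± 0.45 (edgeR unadjusted p = 0.053), and 0.13 ± 0.37 at P75.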

How the data were processed

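Raw read counts per Ensembl gene, 1 file per library, were deposited by the authors, and no other values of theirs entered the work. Per the labels' protocols, total RNA of all P1 cortex libraries was extracted with TRIzol and QuantSeq 3′ libraries were sequenced on an Illumina HiSeq. Per the submitters' processing notes, STAR and the build GRCm38 were used. Not given in the sources used here are versions, the counting tool, its strand setting, the annotation and any collapsing of duplicate tags. Of 55416 gene IDs, 52135 matched GENCODE M21, which gave names, positions, exons and selenocysteine codons.

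Libraries were grouped by their labels. Genes were kept with filterByExpr of edgeR 4.0.16 (R 4.3.3), scaled by TMM and tested with the quasi-likelihood F test on the 6 P1 cortex libraries (4 residual degrees of freedom), with Benjamini-Hochberg adjustment over all genes and a threshold of 0.05. The prior count was 2. SE is the size of the fold change over the square root of F. Differences between tissues or ages were tested as interactions over the 12 P1 and the 14 cortex libraries. The tests were checked on simulated counts with known changes in well-counted genes. These counts were drawn gene by gene, without shared differences between libraries. There edgeR called 44% of 2-fold and 89% of 4-fold changes in P1 cortex. For heart minus cortex it called 3% and 46%, and for P75 minus P1 cortex 9% and 65%. False calls numbered 10, 3 and 5. Gene lists are described by counts and medians, with no test. Named genes were Sepsecs and Gpx4, selenoproteins and genes of selenocysteine synthesis, the 12 smallest p in each direction outside the sex chromosomes, up to 4 genes of smallest p in each list, and the GABA-A and substrain genes. The libraries, lists and this rule were chosen with earlier results of these data known. Alternatives were RLE scaling, other count filters, DESeq2 1.42.0, limma-voom (limma 3.58.1), the replicate number as a block, a covariate, libraries left out, P1 and P75 cortex in 1 fit, haemoglobin and mitochondrial genes left out, and a threshold of 0.1.

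Counts give precision from depth: at 1 CPM a library holds about 5 to 7 tags. All pairs of libraries of a group differed beyond sampling noise.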

Additional observations from a re-analysis of the deposited data

Results flagged for a closer look

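In the P75 cortex, Gpx1 of mutant 2 stood far from the other mutants, at 162 CPM against 80.8 to 99.95 in the other 4, and close to the P75 controls at 166, 166 and 263 CPM. Chance alone sets apart some samples by such a gap. The P75 fold change of Gpx1 printed above includes this library.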

How the results depend on the processing

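With the main settings 0 genes were called in P1 cortex. That count was 3 with DESeq2, 52 with no count filter and 9 with the Xist level as a covariate. It was 1 with P1 and P75 cortex in 1 fit (Gabra2). It was also 1 with control 3 and mutant 3 left out, an alternative chosen after seeing the data. The 52 include the sex-linked Xist, Ddx3y, Uty, Eif2s3y and Kdm5d, and Hba-a2. That unfiltered fit gave the smallest adjusted p quoted for Gabra2, Selenow and Gpx1. The 9 include Hspa8, at 1.54 CPM of the library total in control 1 and 111 to 161 elsewhere. Leaving out 1 library gave 0 to 5 calls: 5 without control 1, at least 4 of them sex-linked, and 1 without mutant 3. It was 0 with RLE scaling, a mean count of at least 10, limma-voom, haemoglobin and mitochondrial genes left out, the Tcf7l2 covariate (added) and a threshold of 0.1. With the replicate block it was 0, with 590 genes at an unadjusted p under 0.05. Same-number libraries correlated at r = 0.048, 0.341 and 0.420 after group means were removed, and control 1 correlated best with mutant 2, so the numbers were not taken to pair mice. For heart minus cortex, leaving out 1 library gave 0 to 2 calls (2 without heart control 3). For P75 minus P1 cortex it gave 0 to 0, DESeq2 called 1 and the replicate block 1. Single-gene fold changes of 60 genes were recomputed 1080 times: 1064 kept direction and side of the threshold, 16 passed it, and 0 changed sign. Most of these genes were named for a small p in these same libraries, so their kept signs are no independent check. The threshold of 0.1 repeats the fold changes of the main fit. With 0 genes called in that fit, no gene could drop out. Genes near 1 CPM rest on few tags.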

Other observations

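Haemoglobin alpha tags were divided unevenly between libraries, a feature chosen after its values were seen. Hba-a2 was at 315, 9.13 and 181 CPM of the library total among controls and 6.22, 8.05 and 183 in mutants, while its near-identical neighbour Hba-a1 was at 260 to 1013 in all 6. The split of tags between such copies is uncertain, and the pattern follows neither genotype nor the summed erythroid markers (2056 to 4452 CPM).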
